A study of Mus musculus with 2 samples.

Results

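MHC class II genes, 7 in number, were followed in uterine epithelium of pregnant mice with and without Stat3: H2-Aa, H2-Ab1, H2-Eb1, H2-DMa, H2-DMb1, Cd74 and Ciita. A probe set, the group of short oligonucleotides that reads 1 transcript on an Affymetrix array, belonged to a member when the platform annotation gave it that symbol, and the brightest probe set of a gene over both arrays gave its main value. Of the 12393 genes that had a probe set of their own, 6 were members. H2-DMb1 had none, because the annotation gives its probe sets to H2-DMb2 as well. The study compared 1 control array with 1 Stat3 knockout array (Mouse Genome 430A 2.0), each hybridised with RNA from epithelial cells collected on day 4 of pregnancy. The control is described as Stat3 flox in a title that both samples carry, and the genotype label separates control from Stat3 knockout. RNA was pooled, with n = 3 for each sample in the design text. No source used here gives the Cre driver, the strain or the age of the mice, and the epithelium was released with trypsin and forceps rather than sorted. With 1 array per group there is no replicate check, so every difference below compares 2 pools, carries no p-value and is described by its size.

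Class II molecules are pairs of an alpha and a beta chain that show peptides from the endosomal route to CD4 T cells. The invariant chain, the product of Cd74, fills their groove and steers them to the endosome, where proteases cut it down and H2-DM, a dimer of the H2-DMa product and an H2-DMb product, exchanges the last piece for a peptide. Their promoters share an upstream module, the X and Y boxes, bound by RFX, CREB and NF-Y factors, and transcription depends on the co-activator encoded by Ciita. Macrophages, dendritic cells and B cells carry class II molecules without stimulation, while many epithelia make them after interferon gamma.

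The promoter module is shown here because it recurs among class II loci, though not in every window read. RefSeq promoter windows (GRCm38.p6, from 250 bases before to 50 after a start) were at hand for 8 class II loci, of which 4 are members: H2-Aa, H2-Eb1, H2-DMa and H2-DMb1. An X box core (AGNAAC) that stood 15 to 35 bases before a Y box in the ATTGG orientation was found in 5 of these loci, H2-Eb1, H2-DMb1, H2-Oa, H2-Ob and H2-Eb2, against 0.566% of the 32851 windows in the table. The spacing was set after these windows had been read. H2-Aa held no AGNAAC, but it had an X2 box core (TGACG) at 21 bases before the Y box, an arrangement found in 0.365% of windows. The member H2-DMa and the other locus H2-DMb2 held neither arrangement. The stretches lie at chr17:34287842-34287922 (minus strand) for H2-Aa, chr17:34305750-34305837 (plus) for H2-Eb1, chr17:34153071-34153159 (plus) for H2-DMb1 and chr17:34092277-34092365 (plus) for H2-Oa, and capitals mark the X or X2 core and the Y box.
H2-Aa: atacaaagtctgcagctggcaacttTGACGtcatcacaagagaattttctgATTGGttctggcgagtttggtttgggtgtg
H2-Eb1: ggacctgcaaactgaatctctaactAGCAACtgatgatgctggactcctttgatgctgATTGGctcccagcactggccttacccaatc
H2-DMb1: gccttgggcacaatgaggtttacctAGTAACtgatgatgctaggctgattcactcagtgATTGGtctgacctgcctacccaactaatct
H2-Oa: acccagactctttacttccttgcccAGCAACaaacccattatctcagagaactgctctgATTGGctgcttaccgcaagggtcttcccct

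In the H2-Aa, H2-Eb1, H2-DMb1 and H2-Oa windows the Y box began 48, 59, 61 and 43 bases before the start. Single motifs are common on either strand: CCAAT was found in 37.4% of all windows, AGNAAC in 48.1% and TGACG in 20.8%. A gamma-activated site (TTCNNNGAA, in 8.30% of windows) was present in 1 of the 8 class II loci, H2-DMb2. The interferon response element core, GAAA and GAAA with any 2 bases between them, was present in none of them and in 3.44% of all windows. Matches of different motifs were allowed to overlap, and a match is a string of letters, not a bound site.

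The arrays had been brought to a common level: without 2% of probe sets at either end, each had a mean of 150.1. Signals are MAS5 intensities on a linear scale, and a floor was set at the 40th percentile of all signals (14.0); a gene under it on both arrays has no ratio, and a gene under it on 1 array has a bound. Stat3, the targeted gene, gave 582 on the control array and 186 on the knockout array (3.12-fold lower) with its brightest probe set. Whether that probe set lies inside the deleted part is not known from the sources used here. Of 13 measured epithelial markers, all over the floor, 11 lay within 2-fold, beside 6868 of the 8304 genes with a ratio. That is a similar share, so the count does not set these markers apart. Krt8, a keratin of simple epithelium, had 4220 and 4289, and the secreted epithelial protein gene Wfdc2 had 4807 and 4878. Past the limit were the keratin gene Krt7, 3.46-fold lower, and the claudin gene Cldn4, 2.09-fold higher. Over all 8304 genes with a ratio, the median log2 ratio of knockout over control was 0.05 and 53.4% of the ratios were above 0. The ratio of 3' to 5' signal, a sign of RNA integrity, was 0.736 and 0.699 for Gapdh, 1.504 and 1.561 for Actb and 19.9 and 21.97 for the pyruvate carboxylase control. For the transferrin receptor control it was 0.431 and 2.39, with 3 of its 4 signals under the floor. The part of RNA quality in the class II ratios was not tested.

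All 5 class II members that could be given a ratio had a higher signal on the knockout array, and none of the 5 reached 2-fold. Their log2 ratios lay between 0.33 and 0.80, with a median of 0.47. The number at least 2-fold higher was 0 of 5, beside 7.37% of all genes, and the number at least 2-fold lower was 0 of 5, beside 9.92%. At 1.5-fold, 2 of the 5 were higher, H2-Eb1 and Cd74, beside 19.4% of all genes. All 5 ratios kept a positive sign when the arrays were rescaled by the median, by quantiles or by loess. These rescalings moved the median of all genes by at most 0.059, less than the lowest member ratio, so a change of sign was unlikely from the outset.

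**Figure D1:**
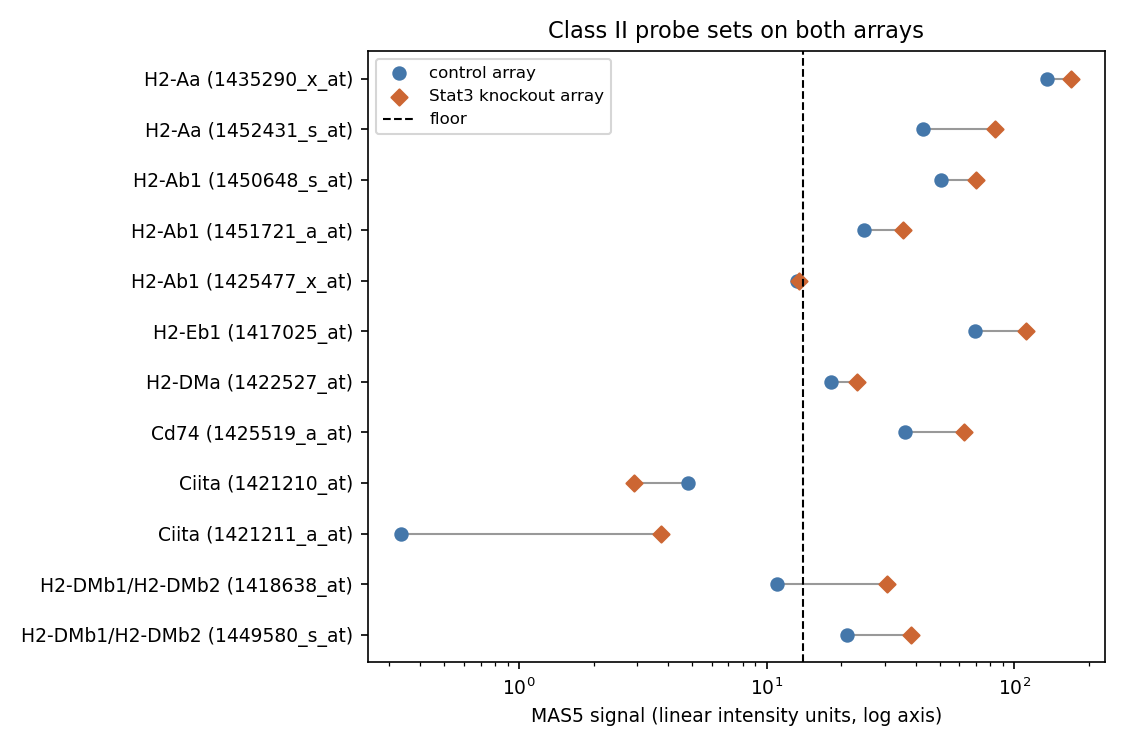
Signal of every class II probe set, and of the probe sets shared by H2-DMb1 and H2-DMb2, on the control array (circles) and the Stat3 knockout array (diamonds); the horizontal axis is the MAS5 intensity on a log scale and the dashed line is the floor of 14.0. The knockout signal lies to the right of the control signal for every probe set over the floor on either array, and both Ciita probe sets lie under the floor on both arrays.

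Among the classical chains, H2-Aa, which encodes the alpha chain of the I-A molecule, gave 135 on the control array and 169.9 on the knockout array with probe set 1435290_x_at, 1.26-fold higher (log2 ratio 0.33). Its other probe set, 1452431_s_at, had 42.9 and 83.5, 1.95-fold higher (0.96). The direction was the same in both and the size was not; over the 2855 genes with several measured probe sets, log2 ratios of a gene differed between its probe sets with an SD of 0.31. Names ending in _x_at, _s_at or _a_at mark probe sets that can also read related transcripts.

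H2-Ab1, the beta chain of I-A, had 50.7 and 70.3 with 1450648_s_at (control first, as for every pair of signals here), 1.39-fold higher (log2 ratio 0.47). Probe set 1451721_a_at had 24.9 and 35.4, 1.43-fold higher (0.51). The remaining one, 1425477_x_at, was under the floor on both arrays, with 13.3 and 13.5. The probe sets over the floor thus gave nearly the same ratio. H2-Eb1, the beta chain of the I-E molecule, had 69.6 and 112 for its probe set 1417025_at, 1.61-fold higher (0.69). H2-Ea, which encodes the partner alpha chain of I-E and is inactive in some laboratory strains, was under the floor on both arrays in its 3 probe sets, the brightest with 1.21 and 2.92.

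Cd74, the invariant chain gene, had the largest main value among the 5 members with a ratio, though the dimmer H2-Aa probe set was higher. Its signals were 36.2 and 62.9 (probe set 1425519_a_at), 1.74-fold higher (log2 ratio 0.80). Of the 8304 genes with a ratio, 12.1% had a higher one than Cd74, 15.7% than H2-Eb1 and 24.1% than H2-Ab1. For H2-DMa and H2-Aa these shares were 30.3% and 31.5%. The order of the members thus ran from Cd74 over H2-Eb1, H2-Ab1 and H2-DMa to H2-Aa, and each step in it was smaller than the SD of 0.31 between probe sets. H2-Aa and H2-DMa were also within that SD of the median of all genes.

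H2-DMa, the alpha chain of the peptide exchange factor H2-DM, was dim. Probe set 1422527_at had 18.2 and 23.2, 1.27-fold higher (log2 ratio 0.35). The beta chain genes H2-DMb1 and H2-DMb2 share 2 probe sets, whose values cannot be assigned to either gene and are not counted among the members. One of them, 1449580_s_at, had 21.1 and 38.2, 1.81-fold higher (0.86), and the other, 1418638_at, had 11.0 and 30.6, at least 2.18-fold higher because the control was under the floor. The probe set of H2-DMb2 alone had 7.94 and 22.8, at least 1.62-fold higher. Of the other class II loci, H2-Oa, a chain of the H2-DM inhibitor H2-O, was under the floor on both arrays, with 5.62 and 0.486, although its promoter carries the module printed above.

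Ciita, the co-activator gene on which class II transcription depends, could not be given a ratio. Probe set 1421210_at had 4.82 on the control and 2.91 on the knockout array, and 1421211_a_at had 0.334 and 3.74, all under the floor. The probe sets point in opposite directions at a level where MAS5 signals have no order. A change in Ciita was therefore not measurable on these arrays, in either direction.

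The factors that join the co-activator on the promoter lay within 2-fold. All 7 (Rfx5, Rfxap, Rfxank, Nfya, Nfyb, Nfyc and Creb1) had a ratio. The number past 2-fold was 0 in either direction, beside 7.37% of all genes higher and 9.92% lower. Of the 7, 3 were above 0 and 4 below, and the median log2 ratio was -0.50. That median was nearer 0 with the floor at the 60th percentile (-0.16), with the mean of all probe sets (-0.12), without shared probe sets (-0.03) and with the dimmest ones (-0.00064). Rfx5, the DNA-binding subunit of RFX, had 82.8 and 146.9, 1.77-fold higher. Nfyc, a subunit of NF-Y, had 381 and 519, 1.36-fold higher. The 4 genes below 0, Rfxap, Nfya, Nfyb and Creb1, were 1.42-fold to 1.56-fold lower.

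On the route from interferon gamma to Ciita, 8 of the 11 genes on the array had a ratio. Of these, 2 were at least 2-fold higher, beside 7.37% of all genes, and 0 were lower by that much, beside 9.92%. The number higher was 1 without shared probe sets (7.87% of all genes) or with the dimmest ones (8.66%), and 4 without a floor (15.5%). At 3-fold it was 0 (1.72%). The median log2 ratio was 0.47. The receptor subunit gene Ifngr2 had 189.7 and 457.6, 2.41-fold higher (log2 ratio 1.27), and its dimmer probe set had 36.3 and 68.4 (0.91). Ifngr1, the other receptor subunit gene, had 95.4 and 86.3, 1.11-fold lower, and was named after its value had been seen. Irf1, a transcription factor that binds the interferon-responsive Ciita promoter, had 173 and 391, 2.26-fold higher. The kinase genes Jak2 and Jak1 were within 2-fold, with 1285 and 1936, and with 308 and 435. Ifng itself was under the floor, with 0.303 and 3.15, as was the inhibitor gene Socs1, with 3.47 and 13.5.

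In a list of class II loading and turnover genes, ratios were more often below 0 than above it. The list also holds Mif and Cd44, whose products meet the invariant chain at the cell surface. Among its 10 measured genes, 7 had a ratio below 0, and the median log2 ratio was -0.49. Of the 10, 4 passed 2-fold downwards, beside 9.92% of all genes, and 0 upwards, beside 7.37%. Mif and Cd44 were among those 4. Mif, a cytokine gene whose product binds the invariant chain at the cell surface, had 1693 and 253, 6.69-fold lower. Cd44, the co-receptor in that complex, was at least 2.84-fold lower, from 39.9. Lgmn, the endosomal asparaginyl endopeptidase gene, had 244 and 58.9, 4.14-fold lower, and Ctsl, whose product cathepsin L trims the invariant chain in thymic epithelium, was 2.74-fold lower. The brightest genes within 2-fold were those of cathepsins D and B, Ctsd with 4561 and 5340 and Ctsb with 3177 and 2891. Ctss and Ifi30 were named after their values had been seen, for their roles. Ctss, the gene of cathepsin S, which trims the invariant chain in presenting cells, had 266 and 362, 1.36-fold higher. Ifi30, the gene of the endosomal thiol reductase, had 396 and 267, 1.48-fold lower.

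**Figure D2:**
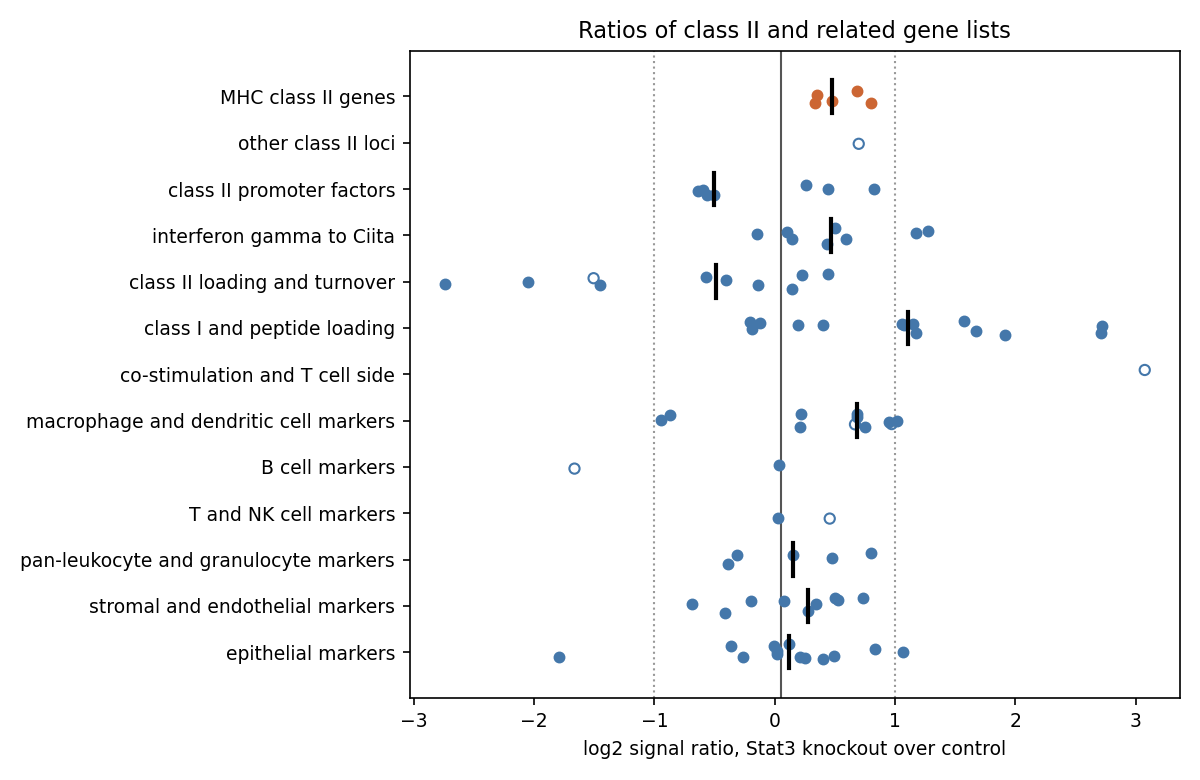
Log2 signal ratio of Stat3 knockout over control for the measured genes of 13 lists, 1 point per gene; open points are bounds against the floor, short black bars are medians of lists with more than 2 points, the solid line is the median of all genes (0.05) and the dotted lines mark 2-fold. The 5 class II members lie between 0.33 and 0.80, while 9 class I and peptide loading genes lie past 2-fold on the right.

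Class I genes, which show peptides from the cytosol, had a higher median ratio than the class II members on the same arrays, with single genes on either side. Among 14 measured genes of class I and peptide loading, 9 passed 2-fold upwards, beside 7.37% of all genes, and 0 downwards, beside 9.92%. Their median log2 ratio was 1.11. The peptide transporter genes Tap1 and Tap2 were 6.61-fold and 3.19-fold higher, the immunoproteasome gene Psmb9 6.57-fold, and the heavy chain gene H2-K1, whose probe set can read related class I genes, 3.77-fold. The other 5 genes lay within 2-fold. The chaperone genes Pdia3 and Calr had 1988 and 1748, and 1905 and 1746. The immunoproteasome subunit gene Psmb10 had 255 and 222, 1.15-fold lower. The proteasome activator gene Psme1 was 1.14-fold higher and the peptide-trimming enzyme gene Erap1 1.32-fold higher. Psmb10, Psme1 and Erap1 were named after their values had been seen. The difference between the classes was not tested, since both rest on the same 2 arrays.

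Class I processing genes lie among the class II loci in the class II stretch of chromosome 17. RefSeq orders 15 genes there from H2-Oa to H2-Eb2, and 10 of them had a ratio. The 4 measured as at least 2-fold higher were Psmb9, Tap1, Psmb8 (369 and 819, 2.22-fold) and Tap2, which follow each other without a gap. On one side of them lay H2-DMa with a log2 ratio of 0.35 and H2-DMb2 with at least 0.70, a bound that does not place it relative to 2-fold, and on the other H2-Ab1, H2-Aa and H2-Eb1 with 0.47, 0.33 and 0.69. H2-DMb1, which lies between H2-DMb2 and Psmb9, had no ratio of its own. The probe sets it shares with H2-DMb2 were 1.81-fold and at least 2.18-fold higher. Brd2, a bromodomain gene of the stretch that belongs to neither class, had 452 and 512 (0.18). This stretch was chosen after the values had been seen.

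**Figure D3:**
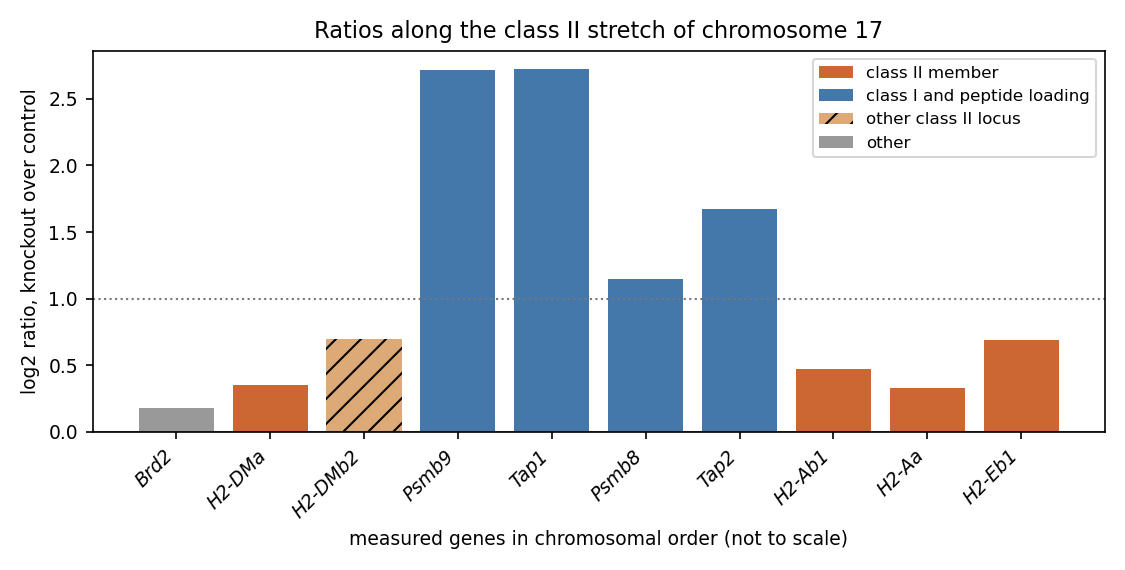
Log2 signal ratio of Stat3 knockout over control for the 10 measured genes between H2-Oa and H2-Eb2, in RefSeq order and not to scale; the hatched bar of H2-DMb2 is a bound and the dotted line marks 2-fold. Psmb9, Tap1, Psmb8 and Tap2 lie above the line, H2-DMa, H2-Ab1, H2-Aa and H2-Eb1 lie below it, and the place of H2-DMb2 is not known beyond its bound. H2-DMb1, which lies beside Psmb9, has no probe set of its own and is not shown.

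Markers of cells that carry class II molecules without stimulation were measured beside the members. In whole preparations like these, more cells of a type and more RNA per cell cannot be told apart. Of 21 macrophage and dendritic cell markers, 19 were on the array and 11 had a ratio, 9 above 0 and 2 below, with a median log2 ratio of 0.68; their summed signal over the 19 was 815 on the control array and 961 on the knockout array. C1qa, a complement gene of macrophages, was 2.03-fold higher (33.2 and 67.4), the lysozyme gene Lyz2 had 154 and 296, and Laptm5, a lysosomal membrane gene of leukocytes, had 227 and 118. The macrophage genes Adgre1 and Csf1r had 20.4 and 32.8, and 85.8 and 144, while Cd68, another macrophage gene, had 81.1 and 44.4, 1.83-fold lower. The dendritic cell genes Itgax, Flt3, Xcr1 and Cd209a were under the floor on both arrays, as were Mrc1, Cd163, Fcgr1 and Itgam. Adgre1, Csf1r, Cd68 and the genes under the floor were named as defining markers, after their values had been seen. The median of the list depended on the floor: it was 0.22 with the floor at the 20th percentile or absent, 0.17 with the floor added to both signals and 0.058 with it at the 60th percentile.

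The pan-leukocyte gene Ptprc had 34.4 and 38.2 and the leukocyte surface gene Cd52 99.1 and 79.7; their list of 10 had 5 ratios, 3 above 0, with a summed signal of 217 and 220. Of all 12393 genes on the array, 4089 were under the floor on both arrays. Of 7 B cell markers on the array, 5 were under the floor on both, among them Ms4a1, Cd79a and Pax5. The B cell receptor gene Cd79b was at least 3.17-fold lower (44.5 in the control), and Ighm had 16.3 and 16.8. Of 11 T and NK cell markers, 9 were under the floor on both, Cd3e and Cd3g among them, and the summed signal was 86.7 and 100.1. The members' own summed signals over 6 genes were 315 and 441. The part of these cells in the class II signal was not tested.

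Stromal and endothelial markers had 9 ratios among 16 genes, 6 above 0 and 3 below, with a median of 0.27 and a summed signal of 2720 and 3662. The number past 2-fold was 0 of 9 in either direction, beside 7.37% of all genes higher and 9.92% lower. The collagen gene Col3a1 had 570 and 721 and the proteoglycan gene Dcn 1235 and 1753. The dimmer Col3a1 probe set had 35.6 and 32.2. Below 0 were Pdgfra (27.8 and 17.2), Acta2 (95.2 and 71.6) and Cdh5 (18.1 and 15.8), named after their values had been seen. Without shared probe sets the median of the list was -0.0029. The part of stromal and endothelial cells in the class II signal was not tested either.

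**Figure D4:**
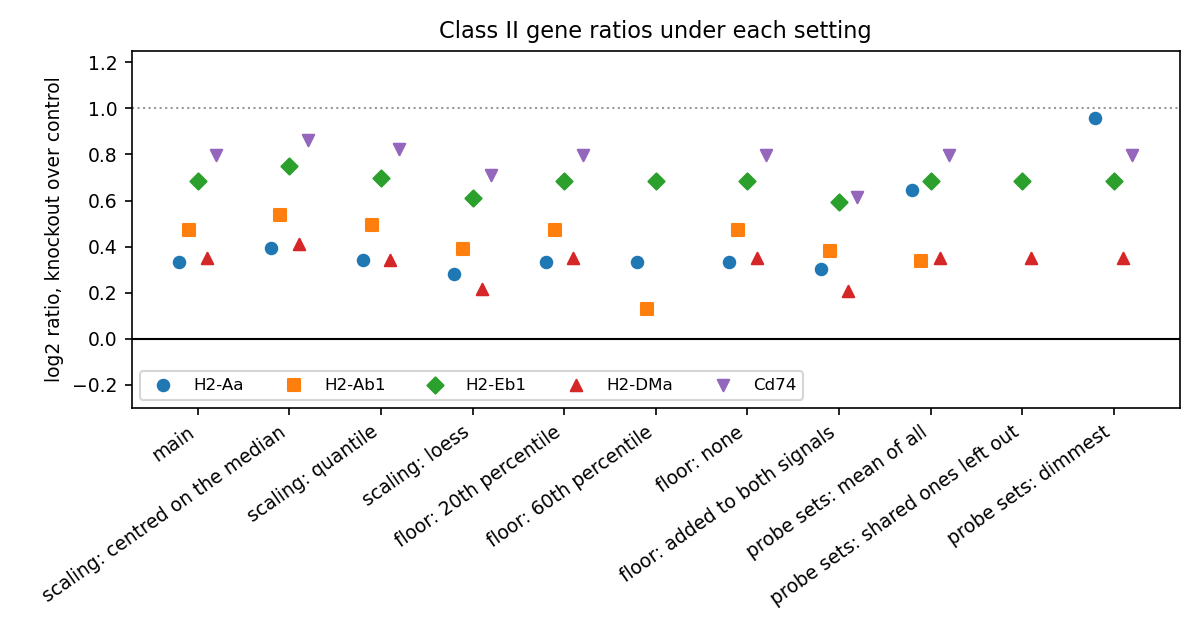
Log2 signal ratio of Stat3 knockout over control of the 5 class II genes with a ratio under the main setting and 10 alternatives of scaling, floor and choice of probe set; the dotted line marks 2-fold and a missing symbol means no ratio under that setting. Values stay above 0 and below 1, with H2-Aa nearest to the line, at 0.96, when its dimmest probe set is used.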

How the data were processed

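The authors deposited 1 intensity per probe set and array, with 22690 probe sets. MAS5 and Affymetrix Expression Console 1.1 are named in the submitters' processing notes; the equal trimmed means show that the deposited intensities were already scaled. Probe sets were named from the platform annotation (20380 with 1 gene, 691 with several, 1555 with none), with symbols brought up to date from a RefSeq table (GRCm38.p6; gene IDs of 99.9% matched). Signals under the 40th percentile were set to it, and log2 ratios of knockout over control were taken without pseudocount. Genes were counted at 2-fold. Promoter motifs were searched on both strands. Scripts (Python 3.11, pandas 2.3.3) were tested on simulated data. Arrays give no counts; precision is limited by the number of arrays, by the disagreement between probe sets and by the wider spread of dim signals. Detection calls and scanner files were not used here.

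The members and 12 further gene lists were chosen with earlier results of these data known. Named were all members, up to 4 genes past 2-fold with the largest ratio and the 2 brightest others of each list, and Stat3. Alternatives changed the scaling, the floor, the probe set or the fold limit. The label text on RNA extraction names human stromal cells, against the mouse epithelium of every other label.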

Additional observations from a re-analysis of the deposited data

How the results depend on the processing

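Over 10 alternatives of scaling, floor and probe set, the median log2 ratio of the class II members stayed between 0.33 and 0.74, and 0 members passed 2-fold. At 1.5-fold 2 were higher. The median of all genes moved by at most 0.059 under another scaling. Single ratios moved by more than the probe set SD of 0.31 in H2-Aa (0.65 as the mean of its probe sets, 0.96 for the dimmest) and in H2-Ab1 (0.13 with the floor at the 60th percentile). With that floor 3 members had a ratio, and without probe sets that can read several transcripts 2 had one, H2-Eb1 and H2-DMa. With the floor at the 20th percentile, added or absent, Ciita also had a ratio, and it was below 0. Of the class I and loading list, 5 genes passed 2-fold upwards without shared probe sets, beside 7.87% of all genes. B2m, H2-K1, Tap2, Psmb8 and Calr have only shared probe sets and so had no ratio in that setting. At 3-fold, 4 genes of the class I and loading list were higher, beside 1.72% of all genes. In the turnover list 2 were at least 3-fold lower, beside 4.83%. No paired analysis was possible because each group has 1 array. H2-DMa, Cd74 and H2-Ab1 belong to the dimmest of 3 equal groups of genes over the floor, whose log2 ratios ran from -1.64 to 1.20 between the 5th and 95th percentiles.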

Other observations

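Of 10 co-stimulatory and T cell genes that act beside class II molecules, 9 were under the floor on both arrays, including Cd80, Cd86, Cd40, Icosl and Cd4. Of all 12393 genes on the array, 4089 were under it on both. Cd274, which encodes the inhibitory ligand PD-L1, gave 10.9 on the control array and 118 on the knockout array, at least 8.43-fold higher.

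In the promoter windows of 18 class I and peptide loading genes, 13 genes held CCAAT and 10 held TGACG, beside 37.4% and 20.8% of all windows. The X box core at the class II spacing before a Y box was in 0 of them, beside 0.566% of all windows. With so small a share and a spacing set on class II windows, this 0 cannot tell whether these promoters carry the module. The X2 arrangement of H2-Aa was not counted in these genes. The interferon response element core was found in 4 of the 18, B2m, Erap1, H2-T23 and Psme1, beside 3.44% of all windows. The gamma-activated site was in 2, H2-M3 and Psmb8, beside 8.30%.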
